A study of Homo sapiens with 4 samples.

Results

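Clustered histone genes encode the linker histone H1 and the core histones H2A, H2B, H3 and H4, and lie together in a few groups of neighbouring genes. They were taken here as the genes whose listed symbol starts with HIST1H, HIST2H, HIST3H or HIST4H, or has the matching current form, and that are read by at least 1 probeset naming that gene alone. A probeset is the array's smallest unit, a few probes within an exon. The rule gave 37 of the 16543 genes named by such probesets: 6 of H1, 9 of H2A, 12 of H2B, 6 of H3 and 4 of H4. Of these, 31 belong to the HIST1 cluster on chromosome 6, 3 to HIST2 and 3 to HIST3, both on chromosome 1, and 0 to HIST4. All 37 listed symbols were old names, and the current ones are used below. The mimic cells were T-47D, an established line of hormone receptor-positive breast cancer cells, transfected with a mimic of the artificial microRNA p-27-5p at 200 nM. The control cells were T-47D transfected with a pre-miR negative control, for which no dose is stated separately. TurboFect carried the RNA into the cells of both groups, which grew in DMEM with serum, and each group has 2 arrays. The labels give neither the time from transfection to RNA extraction nor the cultures behind the arrays of a group. The p-values therefore cover array-to-array spread alone, and that spread may be technical.

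As background, the cell makes most of its core histones during S phase, when new DNA has to be packed into nucleosomes. A nucleosome holds pairs of H2A, H2B, H3 and H4, and H1 binds where the DNA enters and leaves it. Most messages of the clustered genes end in a stem-loop instead of a poly(A) tail, and the stem-loop is bound by SLBP. Transcription of the clusters is driven by NPAT, a substrate of cyclin E and CDK2. When DNA synthesis stops, these messages are degraded. Genes for replacement histones lie outside the clusters, and most of their messages carry poly(A) tails.

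All values are on the log2 scale, and a change is mimic minus control. A gene's level is the mean of its probesets whose average over the 4 arrays reached 4.08, the 25th percentile of the table. Across all probesets the correlation was 0.985 between the mimic arrays, 0.984 between the control arrays, and 0.966 to 0.973 between arrays of different groups. Limma (two-sided, Benjamini-Hochberg adjustment over all genes, threshold 0.05) called 363 of 15719 genes, 239 higher and 124 lower. Markers of luminal breast epithelium, such as KRT8, GATA3 and FOXA1, had medians of 10.29 and 10.42 in mimic cells. In control cells these were 10.20 and 10.36. Gene by gene the 10 markers leaned the other way, with a median change of -0.12, 7 below 0 and 3 above. PGR, KRT19 and ESR1 had -0.60, -0.48 and -0.42, and at an unadjusted p under 0.05 these 3 were lower and 0 higher. Over all genes the shares were 12.8% and 7.65%, and no marker was called. In the control arrays 13 measured genes of liver and neurons, which these cells should hardly use, had levels with a median of 4.80 and a highest value of 6.85, that of SYT1. Leukocyte and fibroblast markers had control medians of 5.42 and 4.86. In total RNA from a culture, fewer cells in S phase and less histone RNA per cell cannot be told apart.

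Most clustered histone genes did not pass the test, and those that did went both ways. H1-5, H2AC12 and H3C11 were each more than 2-fold less abundant in mimic cells, and H2BC18 was higher. Of 29 measured members, 3 fell, 1 rose and 25 did not pass the test. Among all genes tested, 2.31% were called, 0.789% lower and 1.52% higher. The groups were separate, with mimic the lower for 12 of the 29 and the higher for 5, against 29.5% and 20.5% of all genes. At an unadjusted p under 0.05, 8 members were lower and 3 higher, against 12.8% and 7.65% of all genes. H2AC1, among the higher ones in both counts, reached the filter only through the mimic arrays. The median change was -0.10 over the members and 0.00 over all genes tested. Restricted to genes above 6.85 in both groups, the median was -0.19 for 17 members and -0.11 for all 6892 such genes. In that range 12 of the 17 members had a change below 0, as had 66.1% of all genes, so that share is close to the background. H2AC12 and H2BC17 fall outside the range through their mimic means alone. These were 6.06 and 6.31, against 7.48 and 7.53 in control cells. With mimic the lower, 9 of the 17 had separate groups, against 45% of these genes. H1-5 and H3C11 were the 2 members of the 17 called lower, and 1.1% of these genes were. The calls depended on single arrays: 1 member was called when mimic replicate 1 was left out and 0 when mimic replicate 2 was. More members were called when a control array was left out. Calls over the whole table also moved up and down with the array left out. In these fits the lone array of a group is taken to vary like the other group. H3C11 was the 1 called without mimic replicate 1 (adjusted p = 0.0385), and with mimic replicate 2 left out it had an adjusted p of 0.137. In the same 2 fits the adjusted p was 0.0769 and 0.0559 for H1-5, 0.0519 and 0.051 for H2AC12, and 0.25 and 0.191 for H2BC18.

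**Figure D1:**
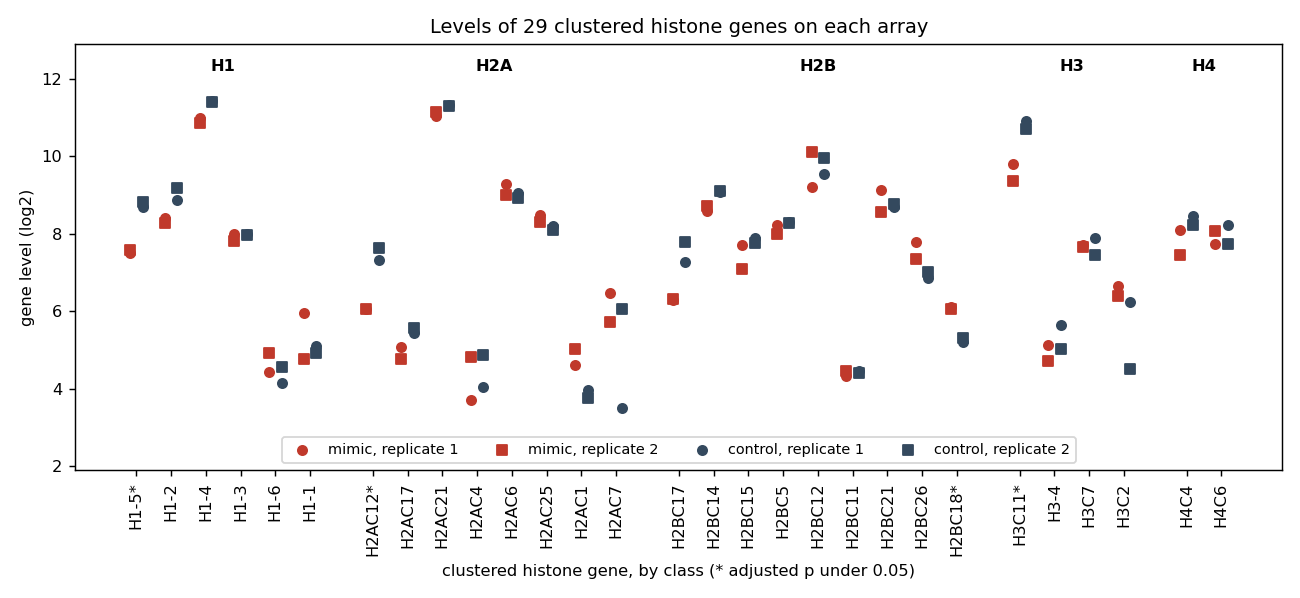
Level (log2) of each of the 29 measured clustered histone genes on the 2 mimic arrays (red) and the 2 control arrays (dark), grouped by class and ordered by change. H1-5, H2AC12 and H3C11 lie lower on both mimic arrays and H2BC18 higher, while the groups overlap for 12 genes.

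Of 6 measured linker histone genes 1 fell, H1-5, and 5 did not pass. H1-5, an H1 subtype of dividing cells, had 7.50 and 7.57 in mimic cells, against 8.70 and 8.82 in control cells. The groups were well apart, with means of 7.53 ± 0.049 in mimic and 8.76 ± 0.085 in control cells (SD, n = 2 each). It fell by 1.22 on the log2 scale (SE 0.124, 95% confidence interval -1.54 to -0.91), which is 2.33-fold lower (limma, adjusted p = 0.0134). Its 3 probesets changed by -1.42, -1.28 and -0.96, and the groups were separate on each. The last of these was dim, with 4.11 and 3.94 in mimic and 5.04 and 4.93 in control cells. Its mimic levels lay close to the filter, which its average reached through the control arrays, so it adds little to the other probesets. H1-2 had 8.41 and 8.29 in mimic and 8.88 and 9.18 in control cells, a change of -0.68 that missed the threshold (adjusted p = 0.0979). On each of its 4 probesets the mimic arrays were the lower ones. H1-4 had 10.998 and 10.86 in mimic and 11.42 and 11.41 in control cells, a change of -0.49 (adjusted p = 0.12). Its groups separated on 3 of 4 probesets. H1-3 had a gene-level change of -0.08 (adjusted p = 0.774), made up of -0.43, -0.27 and 0.47 on its 3 probesets, the last of them with levels between 4.11 and 4.72. H1-1 and the testis-specific H1-6 were each read by 1 probeset at levels from 4.15 to 5.96, with changes of 0.35 and 0.33 and overlapping groups. Over the class, the mimic arrays were the lower ones on 12 of 16 probesets and the higher ones on 1, with no overlap. Over all probesets that name 1 gene, the shares were 27.1% and 20.7%. These shares are not matched for level, and 45% of genes above 6.85 in both groups had both mimic arrays lower. Limma over single probesets called 0 of these 16 and 0 of the 55 probesets of all members, against 0.0946% called lower and 0.823% called higher over the table. At an unadjusted p under 0.05, 13 of the 55 were lower and 5 higher, against 9.01% and 6.31% of all probesets that name 1 gene.

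Of 8 measured H2A genes 1 fell, H2AC12, and 7 did not pass, with changes on both sides of 0. H2AC12 had 6.06 and 6.05 in mimic cells, against 7.32 and 7.64 in control cells. Its mean was 6.06 ± 0.0092 in mimic and 7.48 ± 0.23 in control cells (SD, n = 2 each), and it fell by 1.42 on the log2 scale (SE 0.154, limma adjusted p = 0.0158). This is a 2.68-fold lower level, read by 1 probeset. The mimic levels of H2AC12 lie within the range of the liver and neuron genes, and its control levels above it. H2AC17 had 5.08 and 4.76 in mimic and 5.44 and 5.56 in control cells, a change of -0.58 (adjusted p = 0.131). Both of its probesets were lower on both mimic arrays. H2AC21, of the HIST2 cluster, had 11.03 and 11.14 in mimic and 11.33 and 11.30 in control cells, a change of -0.23 (adjusted p = 0.361). H2AC1, which encodes a testis H2A, had 4.62 and 5.01 in mimic and 3.96 and 3.76 in control cells. Its change of 0.95 did not pass (adjusted p = 0.0703), and these levels lie within the range of the liver and neuron genes. With its 2 dimmer probesets, which did not reach the filter, the change was 0.39. H2AC7 had the largest positive change of the members, 1.32 (adjusted p = 0.437), with 6.47 and 5.72 in mimic and 3.50 and 6.05 in control cells. That difference rests on the control arrays, which are far apart: the change was 0.04 without control replicate 1 and 2.599 without control replicate 2. H2AC25, of the HIST3 cluster, had 0.24 and H2AC4 had -0.18, and neither passed.

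H2AC6 was read by 6 probesets that did not change alike. The probeset with levels from 9.67 to 10.15 changed by -0.29, and a neighbour with levels from 10.19 to 10.66 changed by 0.43, each with groups that do not overlap. The other 4 changed by -0.14, -0.01, 0.39 and 0.58. The gene-level change was 0.16 (adjusted p = 0.601), a mean over probesets on both sides of 0. Of 13 members read by 2 or more probesets, 6 had every change below 0, 2 had every change above 0 and 5 had both.

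Among the H2B genes, H2BC18 rose and H2BC17, on the other side of 0, narrowly missed the threshold. H2BC18, of the HIST2 cluster, had 6.10 and 6.05 in mimic cells, against 5.21 and 5.31 in control cells. Its mean was 6.07 ± 0.033 in mimic and 5.26 ± 0.076 in control cells (SD, n = 2 each), and it rose by 0.82 (SE 0.122, limma adjusted p = 0.0437), a 1.76-fold higher level on 1 probeset. Both of its means lie within the range of the liver and neuron genes. H2BC17 had 6.30 and 6.32 in mimic and 7.27 and 7.79 in control cells, a change of -1.22 (SE 0.197, adjusted p = 0.0531). Its mimic levels lie within the same range, and its control levels above it. A second probeset of H2BC17, with levels from 3.34 to 4.07, did not reach the filter and changed by 0.61, and with it included the gene's change was -0.30 (adjusted p = 0.177). H2BC26, of the HIST3 cluster, had 7.80 and 7.36 in mimic and 6.86 and 7.02 in control cells, a change of 0.64 (adjusted p = 0.148).

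The other H2B genes had smaller changes, and none passed. H2BC14 had 8.58 and 8.71 in mimic and 9.07 and 9.11 in control cells, a change of -0.45 (adjusted p = 0.14) made up of -0.43 and -0.46 on its 2 probesets. H2BC15 and H2BC5 had -0.42 and -0.19, and H2BC21, H2BC12 and H2BC11 had 0.12, -0.10 and -0.04. H2BC12 had 9.22 and 10.10 in mimic and 9.55 and 9.96 in control cells, so the arrays of each group differed by more than the groups did.

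The promoters of H1-5, H2BC17 and H2BC18 are shown because they set the lower linker histone and a pair of H2B genes with changes of opposite sign side by side, although H2BC17 did not pass. They come from RefSeq on GRCh38.p14 and run from 250 bases before to 50 after the start of the gene, 5′ to 3′ on its strand. Capitals mark the TATA box TATAAA, the CCAAT box CCAAT and the octamer ATTTGCAT, searched on both strands, and no matches of different motifs overlap in these 3 promoters. The octamer is the known binding site of POU2F1, which drives H2B genes. H1-5 lies at chr6:27867539-27867838 on the minus strand, H2BC17 at chr6:27893175-27893474 on the plus strand and H2BC18 at chr1:149812321-149812620 on the minus strand.
H1-5: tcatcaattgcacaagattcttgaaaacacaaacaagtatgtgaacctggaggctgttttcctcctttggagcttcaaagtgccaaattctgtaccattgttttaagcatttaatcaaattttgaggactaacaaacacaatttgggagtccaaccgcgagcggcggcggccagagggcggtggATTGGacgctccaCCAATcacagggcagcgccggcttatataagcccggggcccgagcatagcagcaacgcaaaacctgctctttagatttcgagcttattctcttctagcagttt
H2BC17: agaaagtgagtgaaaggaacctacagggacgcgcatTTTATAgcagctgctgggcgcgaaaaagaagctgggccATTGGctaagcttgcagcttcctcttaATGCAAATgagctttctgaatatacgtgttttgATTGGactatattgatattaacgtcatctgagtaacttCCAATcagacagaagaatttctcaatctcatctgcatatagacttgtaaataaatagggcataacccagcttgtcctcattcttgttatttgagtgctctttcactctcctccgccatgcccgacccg
H2BC18: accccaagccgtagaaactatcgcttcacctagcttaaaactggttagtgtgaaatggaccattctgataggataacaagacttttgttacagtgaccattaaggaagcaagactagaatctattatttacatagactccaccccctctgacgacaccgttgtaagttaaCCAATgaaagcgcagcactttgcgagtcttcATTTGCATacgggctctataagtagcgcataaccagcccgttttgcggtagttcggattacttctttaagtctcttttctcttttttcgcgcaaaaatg

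Both H2B promoters hold an octamer. Counted from the gene's start, it begins at -149 in H2BC17, on the other strand, and at -49 in H2BC18, on the gene's own strand. H2BC17 holds 3 CCAAT boxes, H1-5 holds 2 and H2BC18 holds 1. The only TATAAA match of H2BC17 is on the other strand and begins at -214, and H1-5 and H2BC18 hold no exact match. Both of these hold the letters tataag, which the search did not count, so they may still have a TATA box. Of the 37 members, 34 matched a promoter. The octamer was present in 9 of 12 H2B promoters, 7 of 8 H2A promoters and none of the 6 H1, 4 H3 and 4 H4 promoters, against 1.77% of all 35116 promoters. The CCAAT box was present in 94.1% of the members' promoters, against 34.6% of all, and TATAAA in 67.6%, against 11.5%. Matches were counted at any position on either strand, so a match need not be a working TATA box of its gene. H2AC12 and H3C11, which fell, and H3C12 had no entry.

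Within a class, histone genes are close copies of each other, so a probeset listed for 1 gene may also bind messages of its neighbours, and each single-gene value is uncertain in that respect. Few probesets of H3 and H4 name 1 gene. H3C11 had 9.79 and 9.36 in mimic cells, against 10.90 and 10.69 in control cells. Its mean was 9.58 ± 0.3 in mimic and 10.80 ± 0.15 in control cells (SD, n = 2 each), and it fell by 1.22 on the log2 scale (SE 0.188, limma adjusted p = 0.0472), a 2.33-fold lower level read by 1 probeset. Its adjusted p was 0.0523 to 0.0673 with quantile, cyclic loess or equal-median normalization. H3C2 had 6.65 and 6.40 in mimic and 6.23 and 4.49 in control cells, a change of 1.16 (adjusted p = 0.317). It was 0.29 without control replicate 2 and 2.03 without control replicate 1. H3C7 had 0.00 at the gene level, made up of -0.79, -0.43 and 1.23 on 3 probesets whose groups do not overlap on any of them. The testis H3 gene H3-4 had -0.41 (adjusted p = 0.433) with overlapping groups. H4C4 had 8.08 and 7.46 in mimic and 8.44 and 8.22 in control cells, a change of -0.56 (adjusted p = 0.264), and H4C6 had -0.07 (adjusted p = 0.884).

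Probesets shared by several histone genes were mostly lower in mimic cells, and cannot be given to a gene. Of 63 such probesets 53 passed the filter. The mimic arrays were both lower on 37 of these and both higher on 6, against 26.8% and 21% of all probesets past the filter. These shares are not matched for level. Among genes, both mimic arrays were lower for 29.5% of all and for 45% of those above 6.85 in both groups. The 22 shared probesets of H4 all list the same 14 genes, so they cannot be counted as separate genes, and their mean levels ran from 4.52 to 10.99. On 18 of the 22 the mimic arrays were both lower and on 1 both higher, with a median change of -0.79. The median over these 22 was 7.49 and 7.26 in mimic cells, against 8.26 and 8.59 in control cells. In a limma fit over all 174802 probesets past the filter, 1 of the 53 was called. It was an H4 probeset with 6.73 and 6.56 in mimic and 8.19 and 8.48 in control cells, which fell by 1.69 on the log2 scale (adjusted p = 0.0475), and 0.0881% of all probesets were called lower and 0.795% higher. At an unadjusted p under 0.05, 21 of the 53 were lower and 0 higher, against 8.81% and 6.35% of all probesets past the filter. The 15 shared probesets of H3 and H2A genes had a median of -0.40, with 12 lower on both mimic arrays and 0 higher. The shared probesets of H2A fell into a pair of sets with medians of opposite sign. Those listing HIST1H2AB and HIST1H2AE had 3 lower and 1 higher of 5 and a median of -0.63. Those listing 7 genes from HIST1H2AG to HIST1H2AM, among them H2AC12, had 1 lower and 2 higher of 5 and a median of 0.11. Of those of H2B alone 3 of 3 were lower, and the 3 of H2B and H3 genes in the HIST2 cluster had 2 higher and a median of 0.27.

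**Figure D2:**
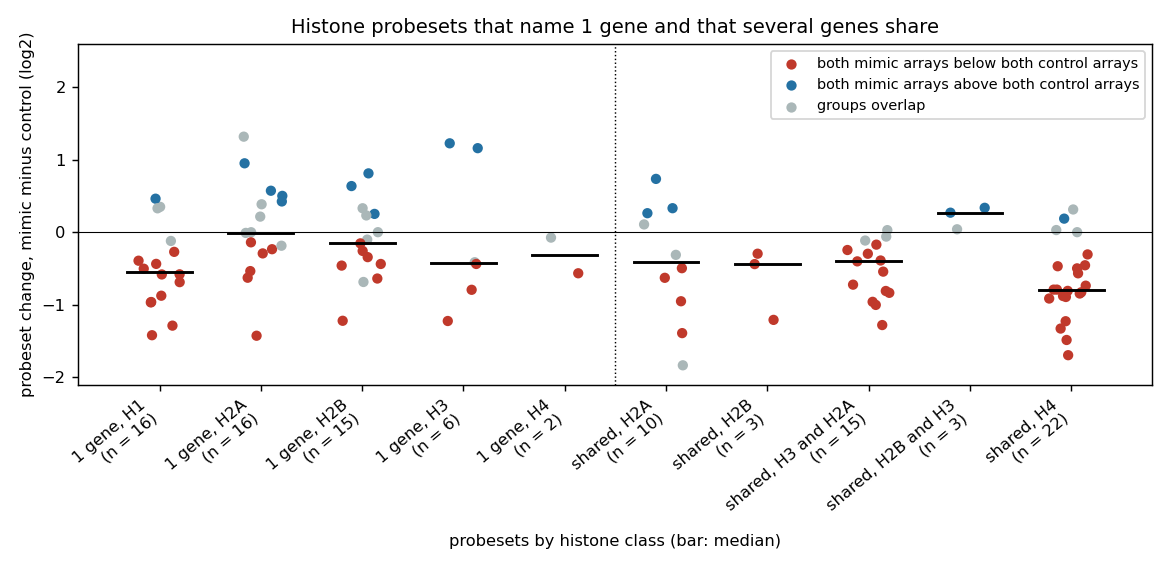
Change (log2, mimic minus control) of each histone probeset past the filter, by class, for probesets that name 1 gene (left of the dotted line) and probesets shared by several genes (right). Bars are medians. Red points have both mimic arrays below both control arrays, as on 12 of 16 H1 probesets and 18 of 22 shared H4 probesets.

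Along the HIST1 cluster the 3 decreases lay in the same stretch. The widest gap between neighbouring HIST1 genes in the RefSeq annotation comes just before H2BC11 and parts the cluster into a first run with 14 measured members and a second run with 9. The split was made after the values were seen and has no test. All 9 of the second run had a change below 0, with a median of -0.58, and 7 of them had separate groups with mimic the lower, as had 29.5% of all genes. In the first run 7 of 14 were below 0, the median was -0.03, and 4 had both mimic arrays lower and 2 both higher. H1-5, H3C11, H2AC17 and H2BC17 follow each other among the measured members there. Shared probesets did not show the same contrast. The H2A set of 7 genes, all in the second run, had the median of 0.11 given above. The H2A set of HIST1H2AB and HIST1H2AE and the H2B set, whose genes all lie in the first run, had medians of -0.63 and -0.44. The 6 measured members of HIST2 and HIST3 had a median of 0.18, with 4 above 0, and H2BC18 was the 1 that passed.

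**Figure D3:**
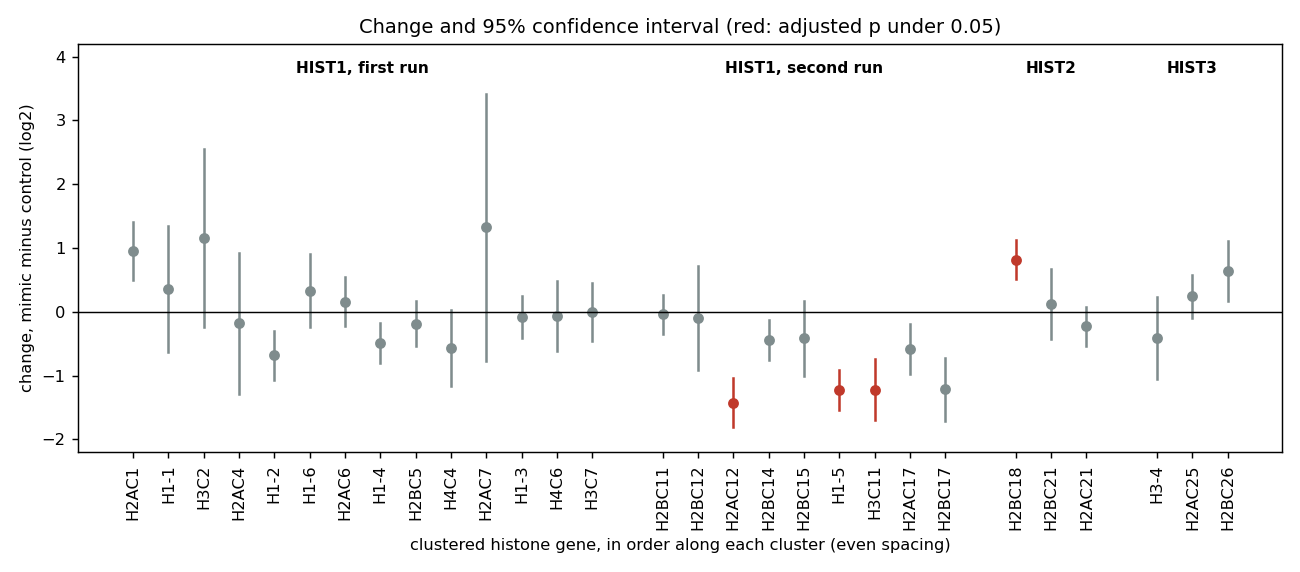
Change (log2, mimic minus control) with limma's 95% confidence interval for the 29 measured members, in their order along each cluster at even spacing. All 9 members of the second HIST1 run lie below 0, and the genes past the threshold are red.

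Another 8 members did not reach the filter on dim probesets: H2BC1, H2BC3, H2BC10, H2AC14, H3C8, H3C12, H4C7 and H4C13. Their group means lay between 2.64 and 4.25. H2BC1 encodes a testis H2B. H2AC14 had 3.58 and 3.66 in mimic and 4.43 and 4.01 in control cells, and H3C12 had 3.42 and 3.60 in mimic and 4.61 and 3.90 in control cells. Both had separate groups, and their changes were -0.60 and -0.74.

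Replacement histones, which replace the clustered forms outside S phase or at special sites, were read by 8 of the 11 listed genes, and none passed. All 8 lie above 6.85 in both groups. Each had a change below 0, as had 66.1% of all genes in that range and 49.7% of all genes tested. Their median was -0.25, against -0.11 in that range, and 5 had separate groups with mimic the lower, against 45% there. H2AX, the H2A variant phosphorylated at DNA breaks, had 8.87 and 8.96 in mimic and 9.28 and 9.43 in control cells, a change of -0.44 (adjusted p = 0.149), and -0.0144 on its brightest probeset. The linker histone H1-10 also had -0.44 (adjusted p = 0.148). H2AJ and the centromere histone CENPA had -0.32 and -0.26. H2AZ1 had 11.86 and 11.84 in mimic and 12.07 and 12.13 in control cells, a change of -0.24. MACROH2A2, H2AZ2 and MACROH2A1 had -0.20, -0.12 and -0.10, and on the brightest probeset of each these were 0.08, 0.12 and 0.03.

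No measured gene of the lists for making, degrading or carrying histones passed. Of 18 genes for histone transcription and 3′ end processing, the median was -0.12. At an unadjusted p under 0.05 there were 3 lower and 1 higher, against 12.8% and 7.65% of all genes. CDK2 had 9.25 and 9.52 in mimic and 10.01 and 10.26 in control cells, a change of -0.75 (adjusted p = 0.0911, and 0.0483 with the replicate number as a block), and -0.32 on its brightest probeset. Cyclin E1, encoded by CCNE1, had -0.56, and the 3′ exonuclease ERI1, which trims histone messages and also stands in the decay list, had -0.37. NPAT had -0.32 and SLBP, which binds the stem-loop, had 0.01. POU2F1, the 1 higher gene, had 0.36 (limma adjusted p = 0.222), with both mimic arrays above both control arrays. Of 9 genes for decay of histone messages 2 were lower and 1 higher at an unadjusted p under 0.05, with a median of -0.07. The shares over all genes are those given for the transcription list. The decapping enzyme DCP2 had -0.60 (adjusted p = 0.0981), but -0.0742 on its brightest probeset, and SMG1, a kinase that acts on UPF1, had 0.57 (adjusted p = 0.13).

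Of 23 histone chaperones, the proteins that carry histones to DNA and place them, the median was -0.28. At an unadjusted p under 0.05, 6 were lower and 1 higher, against 12.8% and 7.65% of all genes. Above 6.85 in both groups, 1356 of 6892 genes were lower at that threshold, and the median was -0.11. ASF1B, which hands H3 and H4 to assembly factors, had 8.90 and 9.07 in mimic and 9.44 and 9.58 in control cells, a change of -0.53 (adjusted p = 0.122). TONSL and its partner MMS22L, which act at damaged forks, had -0.45 and -0.48. On the brightest probesets TONSL had 0.27 and MMS22L -0.25.

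Of 20 measured S phase genes 3 fell, 0 rose and 17 did not pass, with a median of -0.57. At an unadjusted p under 0.05 there were 17 lower and 0 higher, against 12.8% and 7.65% of all genes. Every gene of the list but GINS4 lies above 6.85 in both groups. Of the 6892 genes in that range, 1356 were lower and 362 higher at this threshold, and the median was -0.11. The mimic arrays were both lower for 18 of the 20, against 29.5% of all genes and 45% in that range. They were both higher for RRM2 (0.27) and PCNA (0.04), which did not pass. MCM6, GINS4 and GINS2, parts of the replicative helicase and of the complex that holds it, fell by 0.93, 1.04 and 1.08 on the log2 scale (limma adjusted p = 0.0264, 0.0267 and 0.0327). With mimic replicate 1 or mimic replicate 2 left out, MCM6, GINS4 and GINS2 did not pass, with adjusted p-values from 0.0958 to 0.172. Levels of this list had medians of 8.67 and 8.71 in mimic cells, against 9.26 and 9.33 in control cells. Its part in the changes of the histone genes was not tested.

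**Figure D4:**
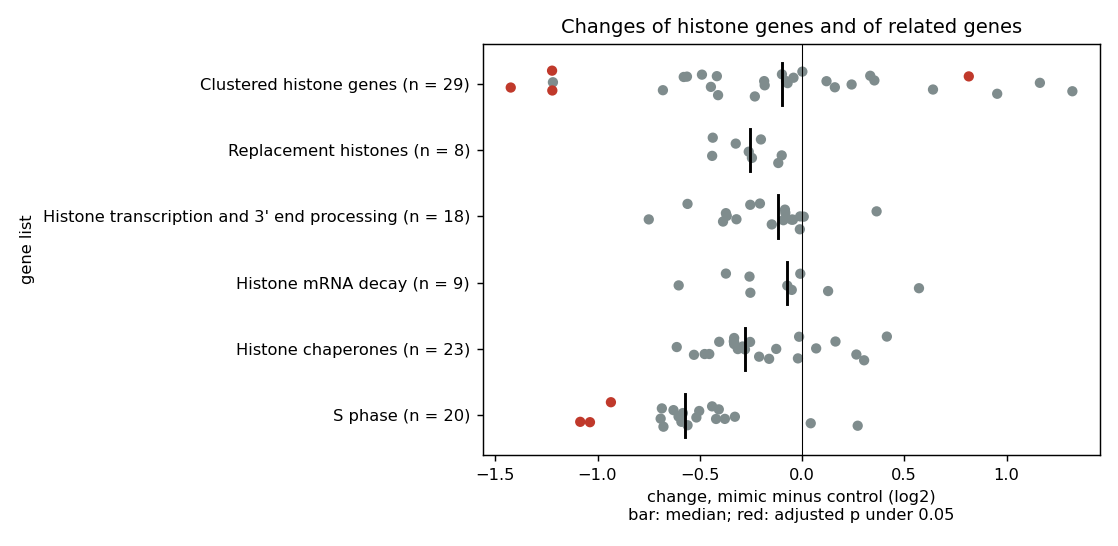
Change (log2, mimic minus control) of each measured gene, for the clustered histone genes and for lists of related genes; bars are medians and red points passed the threshold. Clustered histone genes spread from -1.42 to 1.32, while S phase genes centre on -0.57.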

How the data were processed

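The authors' deposited values are log2 levels, 1 for each probeset and array. The submitters' processing notes list Partek, RMA and hg18 without versions or sequence. Interquartile ranges were 4.18 and 4.32 for mimic, against 4.25 and 4.51 for control, so the arrays had not been brought to identical distributions. The number of arrays limits the precision.

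Symbols came from GEO's platform annotation. Of 216780 probesets with 1 symbol, 25770 were updated through RefSeq synonyms and 952 kept as listed. The 2335 with several symbols were never given to a gene, and 13364 were unnamed. The test was limma 3.58.1 in R 4.3.3, whose residual degrees of freedom were 2, or 5.29 once the prior is added. The code was tested on simulated data. Plots used matplotlib 3.10.9.

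The genes named are members past the threshold, the 5 largest changes each way, the member of each class with the highest mean, all measured replacement histones and, of the other lists, genes past the threshold and the 3 smallest p. Further members, and NPAT, SLBP, POU2F1, RRM2 and PCNA, were chosen after their values were seen. Members and lists were chosen with earlier results of these data known. The series' design text calls the mimic and control samples paired, without saying what a pair shares. The difference between replicates 1 and 2 correlated with r = 0.435 across genes between the groups. The main fit has no replicate block. No genome of build hg18 was used here.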

Additional observations from a re-analysis of the deposited data

How the results depend on the processing

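The calls depended on single arrays, on the variance model and on how probesets were combined. The 4 calls among the members (3 lower, 1 higher) became 7, 8, 9 and 9 with an adjusted p of 0.1, without control replicate 1, with an intensity trend and without the filter on dim probesets. They became 2 with a stricter filter and 1 when a gene was read by its median or by its brightest probeset. Leaving out each array in turn gave 0 to 8 calls. It gave 1 (H3C11) without mimic replicate 1, 0 without mimic replicate 2 and 7 without control replicate 2. Over 15 alternatives the change was -1.42 to -1.16 for H1-5, -1.59 to -1.26 for H2AC12 and -1.44 to -1.01 for H3C11. Over 14 it was 0.76 to 0.87 for H2BC18. Many of these alternatives cannot move a change, such as the replicate block, the intensity trend and the looser threshold. H2AC12, H3C11 and H2BC18 have 1 probeset each, so filters and ways of combining probesets cannot move theirs. For them only normalization and leaving out arrays could. H1-5 and H2AC12 passed in 12 of 15, H3C11 in 8 of 15 and H2BC18, which the stricter filter removed, in 10 of 14. H3C11 missed the threshold with quantile normalization, equal array medians and cyclic loess (adjusted p = 0.0523, 0.0673 and 0.0569). H2BC17 had -1.48 to -0.30 and passed in 6 of 15.

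With the replicate block the same 4 members passed. The block made CDK2 pass and changed no other call of a named gene. Calls over the whole table, 363, became 979 with an adjusted p of 0.1, 1594 with an intensity trend, 1433 without a filter and 122 with the brightest probeset. They were 172 to 1691 with an array left out, and 498 with the replicate block. Probesets of members called, 0, became 5 with an intensity trend, 2 with a stricter filter, 1 with quantile normalization and 2 with an adjusted p of 0.1. In the main fit 0.0946% of all probesets that name 1 gene were called lower and 0.823% higher. The shares under the other settings are not given here, so these counts cannot be set against a background. The members' median stayed between -0.23 and -0.08. With an array left out, H2BC12 had -0.54 to 0.34, above 0 when mimic replicate 1 or control replicate 2 (0.11) was left out, and MACROH2A1 had -0.21 to 0.0101, turning without control replicate 2. On the brightest probeset MACROH2A1 had 0.0253, H2AZ2 0.12, MACROH2A2 0.0758 and TONSL 0.27. The causes were not tested. Genes near the level of liver and neuron genes have little signal over background.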
